A study of Mus musculus with 2 samples.

Results

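The angiogenic ligands and receptors are 10 genes whose products start, steer or restrain the growth of blood vessels. They were taken by symbol from a table of gene expression in 2 patient-derived xenografts, that is, human tumors passaged in mice with a weak immune system. The ligands were VEGFA, VEGFB, VEGFC, PGF, ANGPTL4, EGFL7 and EFNA1, and the receptors were NRP1, NRP2 and KDR. Each of the 10 symbols had 1 row of its own, and 0 stood in a locus merged with another gene, among 56969 entries in all. Both xenografts were gastroenteropancreatic neuroendocrine tumors carried in Foxn1nu athymic nude mice, which lack T cells, and neither had a treatment. The primary library was made from a primary tumor located in the flank of the mouse. The metastatic library was made from a metastatic tumor located in the peritoneal cavity. With 1 library on each side, differences were not checked by replicates and were not tested. Tumor origin and graft site differed together and cannot be told apart. Whether 1 patient gave both tumors is not stated by the labels.

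Vascular endothelial growth factors are secreted proteins that bind receptor tyrosine kinases on endothelial cells. VEGFA binds the kinases encoded by FLT1 and KDR, of which KDR carries most of the signal for endothelial division and vessel permeability. VEGFB and PGF bind the FLT1 product, and VEGFC acts on lymphatic vessels through FLT4. Neuropilins, encoded by NRP1 and NRP2, have no kinase of their own and serve as co-receptors for these growth factors and for class 3 semaphorins. VEGFA and ANGPTL4 are textbook targets of the hypoxia-inducible factors. In a xenograft the vessels usually come from the mouse host, which makes the species of the RNA matter here. The labels give Mus musculus as the organism of both samples, whereas the deposited rows carry human gene names and the submitters' processing notes name a human genome build. Values are therefore read as signal assigned to human genes, and whether mouse RNA contributed to them was not tested.

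Levels were FPKM, sequenced fragments scaled to transcript length and to a library total, which allows levels of different genes to be set side by side. The sum of all FPKM was 784987 for the primary library and 885319 for the metastatic library. Counts were not part of the table, and the depth behind each value is therefore unknown. In 865 entries the same value above 0 was listed in both libraries, 787 of them under 1 FPKM, and whether each column was divided by its own total is not given in the sources used here. Ratios were taken as log2((metastatic + 1)/(primary + 1)) of FPKM, which understates the difference of low genes, and a gene was called lower or higher at a 2-fold difference on this scale. A listed 0 may stand for an estimate that failed: LDHA and RPL7A, genes that nearly every cell uses, were at 0 in both columns. Genes are called expressed at 1 FPKM or more in a library, and a gene not counted as expressed is not shown to be absent. Of 10 neuroendocrine markers 9 had a row of their own and 5 of these were expressed, 2 of them lower and 1 higher. Among all 13812 expressed entries, 9.35% were lower and 9.22% higher. ENO2 stood only in a locus merged with LRRC23, at 81.6 FPKM in the primary library and 23.8 in the metastatic library. CHGA, the chromogranin gene used in diagnosis, was listed at 0 in both libraries, and given that a 0 may be a failed estimate, this defining marker of the labelled tumor type could not be read. SYP stood at 1.63 FPKM in the primary library and 1.96 in the other, and UCHL1 stood at 225 and 705 FPKM. INSM1 stood at 3.54 and 0.271 FPKM and SCG2 at 2.62 and 0.340. CHGB stood at 1.64 and 0.336 FPKM, within 2-fold on the log2(FPKM + 1) scale. It was lower with 0.1 or 0.5 FPKM added in place of 1, and after both libraries were rescaled to equal sums.

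Of the 10 angiogenic genes, 8 had at least 1 FPKM in a library. Among these 8, the ligand genes EGFL7, VEGFA and EFNA1 were at least 2-fold lower in the metastatic xenograft, 0 were at least 2-fold higher, and 5 were within 2-fold. Across all 13812 entries with at least 1 FPKM in a library, 9.35% passed the 2-fold limit as lower and 9.22% as higher. The median log2 ratio of the 8 genes was -0.81, beside 0.03 for all entries. Of the 8, 7 had a log2 ratio below 0, and NRP2 had one above 0. Both receptor genes above 1 FPKM, NRP1 and NRP2, were within 2-fold. VEGFC was under 1 FPKM in both libraries and was not called. KDR was listed at 0 in both, so its level could not be read and it was not called either.

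**Figure D1:**
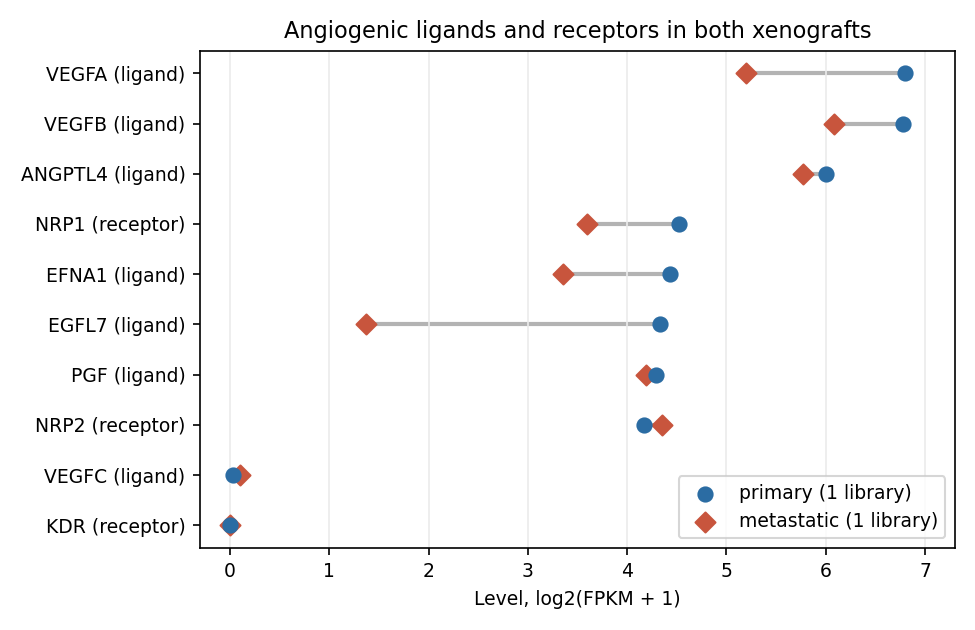
Level of each of the 10 genes on the log2(FPKM + 1) scale (x axis), with the primary library as circles and the metastatic library as diamonds, 1 library each and no error bars. EGFL7 and VEGFA have the widest gaps, ANGPTL4, PGF and NRP2 the narrowest of the expressed genes, VEGFC lies near 0 and KDR is listed at 0.

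VEGFA, the main growth factor for endothelial cells, stood at 110 FPKM in the primary library and 35.8 FPKM in the metastatic library. The level was 3.08-fold higher in the primary library, with a log2 ratio of -1.60. In the primary library 92.6% of expressed entries stood below VEGFA, and in the metastatic library 76.1% did. VEGFA thus held a high level in both tumors while being the second most different of the 8 genes by log2 ratio. Of all entries, 3.30% had a lower log2 ratio than VEGFA.

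VEGFB, a ligand of the FLT1 product, stood at 109 FPKM in the primary library and 66.9 FPKM in the metastatic library, a log2 ratio of -0.70 that did not reach 2-fold. VEGFA and VEGFB therefore had nearly the same level in the primary library, with a ratio of VEGFA to VEGFB of 1.01, and VEGFB was the more abundant in the metastatic library, where this ratio was 0.534. PGF, placental growth factor, stood at 18.5 and 17.2 FPKM, a log2 ratio of -0.10. VEGFC, the lymphatic growth factor, stood at 0.0205 and 0.0758 FPKM, too low in both libraries for a comparison. VEGFD, its closest relative, stood at 0.634 and 0.317 FPKM.

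Summed over VEGFA, VEGFB, VEGFC, VEGFD and PGF, the growth factor family had 238 FPKM in the primary library and 120 FPKM in the metastatic library. VEGFA gave 46.2% of this sum in the primary library and 29.7% in the metastatic library. The share of VEGFB was 45.8% and 55.6%, and that of PGF was 7.78% and 14.3%. The lymphatic ligands VEGFC and VEGFD gave under 1% of the sum in each library. A share within a library does not depend on how the column was scaled, and it shows unequal differences between the ligands rather than which of them differed.

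EGFL7 encodes a secreted protein of the vessel wall that is made mainly by endothelial cells and guides the shape of new vessels. It stood at 19.1 FPKM in the primary library and 1.58 FPKM in the metastatic library, 12.1-fold higher in the primary. Its log2 ratio of -2.97 was the lowest of the 8 genes, and 0.746% of all entries had a lower one. EGFL7 was near the level of PGF in the primary library, and in the metastatic library it was the lowest of the expressed members. The row of MIR126, the microRNA gene that lies in an intron of EGFL7, was listed at 0 in both libraries.

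Endothelial markers were measured beside EGFL7 because this gene is used as one. Of 18 endothelial marker genes, which do not include EGFL7, 4 had at least 1 FPKM in a library, 1 of them lower and 0 higher, with a median log2 ratio of -0.36. The summed level of the 18 was 14.8 FPKM in the primary library and 8.91 FPKM in the metastatic library. The defining markers PECAM1 and CDH5, which encode adhesion molecules of endothelial junctions, stood at 0.237 and 0.0833 FPKM and at 0.152 and 0.0144 FPKM. VWF, which encodes a clotting factor stored in endothelial cells, stood at 0.259 and 0.505 FPKM. The junction gene CLDN5, at 5.73 and 1.41 FPKM, was the marker called lower. MMRN2 stood at 4.204 and 2.69 FPKM and ESAM at 1.55 and 1.18, and ENG had the same value of 1.101 FPKM in both libraries. In the primary library 5 of the 18 markers were listed at 0, namely EMCN, ERG, ROBO4, CD34 and ECSCR, and in the metastatic library 2 were, SOX17 and ECSCR. A further locus that merges ECSCR with DNAJC18 was not counted. EGFL7 stood above the summed level of the 18 markers in the primary library, at 19.1 FPKM, and below it in the metastatic library, at 1.58. These sums count each listed 0 as 0 and are too low where an estimate failed. The part of endothelial cells, human or mouse, in the EGFL7 values was not tested. In bulk RNA, fewer cells of a type and less RNA per cell cannot be told apart.

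ANGPTL4 encodes a secreted protein that inhibits lipoprotein lipase and acts on vessel permeability. It stood at 62.9 FPKM in the primary library and 53.6 FPKM in the metastatic library, a log2 ratio of -0.23. ANGPTL4 was the third most abundant of the 10 genes in the primary library and the second in the metastatic library, above VEGFA. The ratio of VEGFA to ANGPTL4 was 1.75 in the primary library and 0.667 in the metastatic one. The gene of lipoprotein lipase itself, LPL, was listed at 0 in the primary library and stood at 0.236 FPKM in the metastatic library. Of the lipases and their partners, 3 of 5 were expressed, 1 of them higher and 0 lower. LIPG, endothelial lipase, stood at 4.30 and 9.77 FPKM with a log2 ratio of 1.02, which dropped under 2-fold after rescaling to equal sums or by the median ratio. LIPC, hepatic lipase, stood at 26.4 and 24 FPKM, and LMF1, which helps lipases to fold, stood at 5.26 and 2.59 FPKM. Among the other angiopoietin-like genes, 3 of 7 were expressed and all 3 were within 2-fold on the log2(FPKM + 1) scale. With 0.1 or 0.5 FPKM added in place of 1, ANGPTL1 was higher. ANGPTL6 stood at 4.11 and 3.09 FPKM, ANGPTL2 at 1.22 and 0.657, and ANGPTL1 at 0.126 and 1.05.

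EFNA1, a membrane-anchored ligand of EPH receptor kinases and a tumor necrosis factor response gene, stood at 20.6 FPKM in the primary library and 9.26 FPKM in the metastatic library. Its log2 ratio of -1.07 lay close to the 2-fold limit. EPHA2, the best known receptor of this ligand, went the other way, at 9.36 and 23.7 FPKM with a log2 ratio of 1.25. The ratio of EFNA1 to EPHA2 was 2.2 in the primary library and 0.391 in the metastatic library, so the more abundant partner differed between the xenografts. Of 14 EPH receptor genes 4 were expressed, 1 of them lower and 1 higher, with a median log2 ratio of 0.24. EPHB3 stood at 8.65 and 1.18 FPKM with a log2 ratio of -2.14, while EPHB4, a venous receptor, stood at 34.9 and 40.4 FPKM and EPHB2 at 4.57 and 5.76.

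Of the other ephrin genes, EFNB1 was the most abundant with a row of its own. Of the 5 with a row of their own 3 were expressed, 1 of them lower and 0 higher, with a median log2 ratio of -0.48. EFNA5 stood at 2.56 and 0.430 FPKM with a log2 ratio of -1.32. EFNB1 stood at 14.2 and 10.5 FPKM and EFNA2 at 1.76 and 0.986. EFNB2, the arterial ligand of EPHB4, stood at 0.0928 and 0.209 FPKM. EFNA3 and EFNA4 were given only as 1 merged locus, at 10.9 and 8.08 FPKM.

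KDR, the main signalling receptor of VEGFA, was listed at 0 in both libraries, as were LDHA and RPL7A, so its level is unknown. FLT1 stood at 0.0697 FPKM in the primary library and was listed at 0 in the metastatic library, and FLT4 stood at 0.0909 and 0.255 FPKM. The angiopoietin receptor gene TEK stood at 0.0116 and 0.0316 FPKM, and its relative TIE1 at 0.0992 and 0.859. Of 6 genes of the angiopoietin and TIE system, only the ligand gene ANGPT2 passed 1 FPKM, at 2.28 and 2.97 FPKM.

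NRP1 and NRP2 were the receptors among the 10 with values above 1 FPKM. NRP1, a co-receptor for VEGFA and for SEMA3A, stood at 21.9 FPKM in the primary library and 11.1 FPKM in the metastatic library. The level was 1.97-fold higher in the primary library, and the log2 ratio of -0.92 lay just inside 2-fold. After rescaling both libraries to equal sums it was -1.09 and passed the limit. NRP2, a co-receptor for VEGFC and for SEMA3F, stood at 17.0 and 19.4 FPKM, a log2 ratio of 0.19 that was 0.02 after rescaling to equal sums. NRP1 was the more abundant neuropilin gene in the primary library, with a ratio of NRP1 to NRP2 of 1.29, and NRP2 was in the metastatic library, where the ratio was 0.572. Their sum was 38.9 FPKM in the primary library and 30.6 FPKM in the metastatic library.

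**Figure D2:**
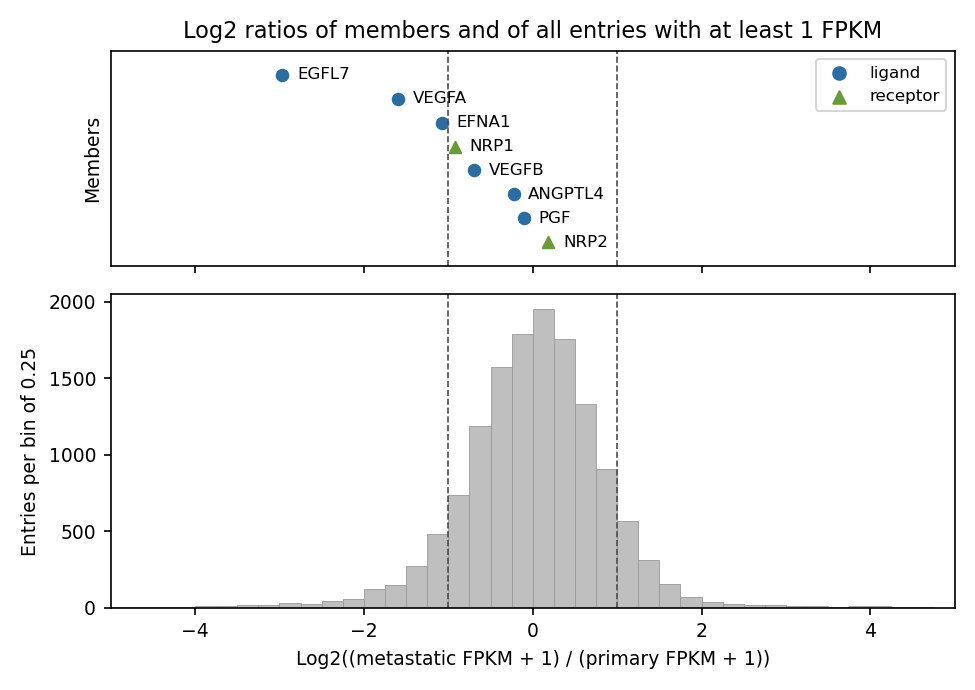
Upper panel, log2((metastatic FPKM + 1)/(primary FPKM + 1)) of the 8 genes with at least 1 FPKM, ligands as circles and receptors as triangles; lower panel, the number of all 13812 entries per bin of the same ratio, with dashed lines at 2-fold. EGFL7, VEGFA and EFNA1 lie left of the lower line, and NRP1 lies just right of it at -0.92.

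Neuropilins signal with plexins when they bind semaphorins. Of 13 genes for class 3 semaphorins, plexins and the neuropilin adaptor GIPC1, 10 were expressed, 3 of them lower and 0 higher, with a median log2 ratio of -0.63. SEMA3F, a ligand that repels endothelial cells through NRP2, stood at 35.3 and 7.53 FPKM with a log2 ratio of -2.09. PLXNA3, a plexin that pairs with neuropilins, stood at 69.6 and 22.3 FPKM with a log2 ratio of -1.60. SEMA3A stood at 2.86 and 0.908 FPKM, with a log2 ratio of -1.02, and SEMA3C stood at 1.23 and 0.408 FPKM, within 2-fold on this scale. The most abundant gene of the list was GIPC1, at 123 and 183 FPKM. SEMA3E and its receptor gene PLXND1 stood at 40.1 and 25.3 FPKM and at 55.3 and 36.0 FPKM, both within 2-fold.

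Growth factors for vessels outside the VEGF family were lower or within 2-fold on the log2(FPKM + 1) scale. Of 21 such ligand genes with a row of their own, 10 were expressed, 4 of them lower and 0 higher, with a median log2 ratio of -0.15. Those lower included APLN, the apelin peptide, at 1.48 and 0.0279 FPKM, HGF, hepatocyte growth factor, at 1.55 and 0.0673, and ADM, the vasodilator adrenomedullin, at 11.5 and 4.52. GPI stood at 23.2 and 8.04 FPKM in its own row, but a merged locus that also holds PDCD2L had 323 and 244 FPKM, and how much of that locus is GPI is unknown, so the call is uncertain. APLN and HGF were under 5 FPKM in both libraries. The heparin-binding growth factor genes MDK and HDGF were the most abundant of the list and nearly level, at 529 and 533 FPKM and at 248 and 269 FPKM. CXCL8 stood at 14.6 and 14.1 FPKM. CCN1, a matrix protein that promotes vessel growth, stood at 54.5 and 104.6 FPKM, within 2-fold on the log2(FPKM + 1) scale. CCN2 stood at 4.02 and 8.17 FPKM, within 2-fold on this scale but higher with 0.1 FPKM added in place of 1. FGF2 stood at 0.253 and 0.0230 FPKM.

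Inhibitors of vessel growth were also lower or within 2-fold. Of 17 inhibitor genes 9 were expressed, 3 of them lower and 0 higher, with a median log2 ratio of -0.41. COL18A1, the collagen from which endostatin is cut, stood at 61.0 and 15.9 FPKM with a log2 ratio of -1.87. THBS1, thrombospondin, stood at 37.2 and 10.9 FPKM with a log2 ratio of -1.69. SEMA4A stood at 7.75 and 2.58 FPKM. SERPINF1, which encodes pigment epithelium-derived factor, was the most abundant inhibitor gene, at 158 and 125 FPKM. SPRY2, a feedback inhibitor of receptor kinases, stood at 24.5 and 13.2 FPKM, within 2-fold but lower after rescaling to equal sums.

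VEGF proteins are held by heparan sulfate in the matrix and are released or trimmed by proteases. Of 15 genes for these steps 10 were expressed, 4 of them lower and 1 higher, with a median log2 ratio of -0.89. The sulfatase genes SULF2 and SULF1, whose products edit heparan sulfate, stood at 24.4 and 6.35 FPKM and at 1.87 and 0.110 FPKM. The protease genes MMP2 and MMP14 stood at 5.26 and 0.599 FPKM and at 23.5 and 7.64 FPKM. PLAU, the urokinase gene, was the one higher on the log2(FPKM + 1) scale, at 9.11 and 111 FPKM. FURIN, which cuts the VEGFC precursor, stood at 294 and 162 FPKM, within 2-fold but lower after rescaling to equal sums. HSPG2, perlecan, stood at 39.8 and 44.3 FPKM. CCBE1 and ADAMTS3, which help to activate VEGFC, were under 1 FPKM, as was VEGFC.

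Genes of the hypoxia-inducible factor subunits were also measured, as RNA only. The activity of the proteins was not measured. HIF3A stood at 49.5 and 11.8 FPKM with a log2 ratio of -1.98, and ARNT, the shared partner subunit, at 12.7 and 5.57 FPKM with a log2 ratio of -1.06. EPAS1 stood at 67.2 and 50.5 FPKM, within 2-fold. HIF1A was given only in a locus merged with SNAPC1, at 64.4 and 45.7 FPKM.

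Over these lists of related genes, 110 had a row of their own besides the 10, and 56 of them were expressed. Of the 56, 18 (32.1%) were lower, 3 (5.36%) higher and 35 within 2-fold, with a median log2 ratio of -0.41. Of all 13812 entries, 9.35% were lower and 9.22% higher, with a median of 0.03, and these shares stand beside each list above as well. The 18 include GPI, whose call is uncertain. The lists were chosen with earlier results of these data known, and the difference in shares was not tested. The 3 higher were PLAU, EPHA2 and LIPG, and LIPG lost the call after rescaling to equal sums or by the median ratio. With 0.1 FPKM added in place of 1, ANGPTL1, CCN2 and PLAT, the last at 0.686 and 2.02 FPKM, were higher as well. The lower counts then rose from 3 to 4 among neuropilin partners and from 4 to 5 among genes of VEGF release and processing. After rescaling to equal sums, the lower counts rose from 4 to 6 among genes of VEGF release and processing and from 3 to 4 among inhibitors.

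**Figure D3:**
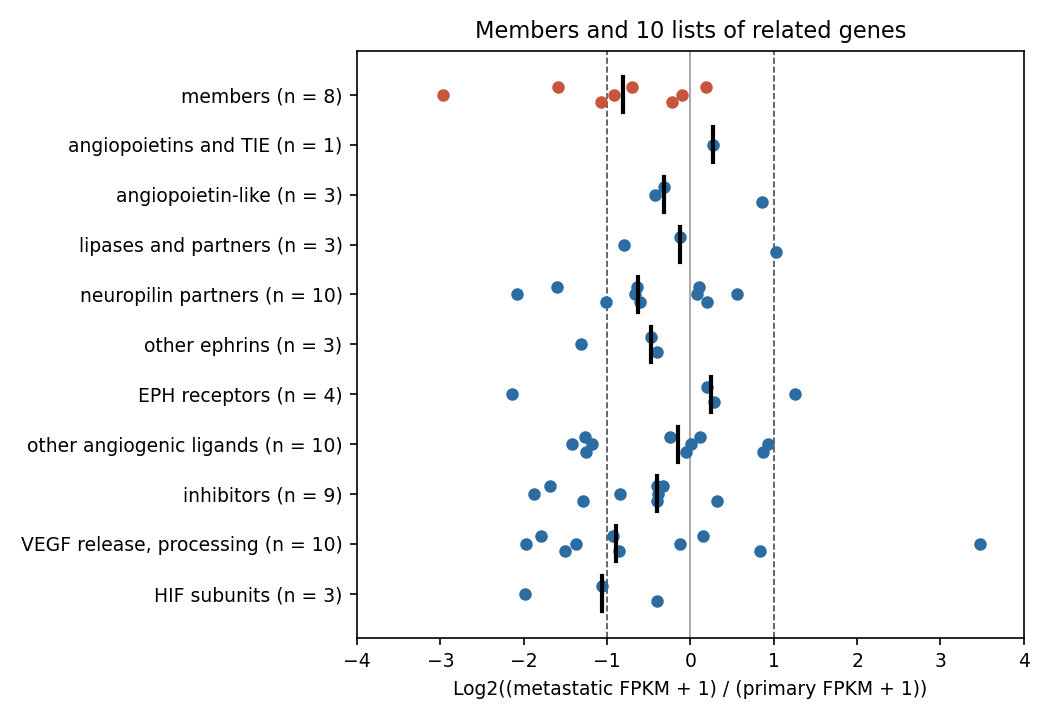
Log2((metastatic FPKM + 1)/(primary FPKM + 1)) of each expressed gene (points) in the 8 angiogenic genes (top) and in 10 lists of related genes, with the median of each list as a black bar and dashed lines at 2-fold. Points of most lists lie to both sides of 0, and PLAU is the point furthest right at 3.47.

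Markers of other cells that carry or surround vessels were also measured. Of 10 pericyte and fibroblast markers 9 had a row of their own, and PDGFRA stood only in a merged locus, at 50.3 and 42.8 FPKM. Of the 9, 7 were expressed, 3 of these lower, 1 higher and 3 within 2-fold. With 0.1 FPKM added in place of 1, CSPG4, at 2.59 and 1.23 FPKM, was lower as well. Of all 13812 entries, 9.35% were lower and 9.22% higher. These shares stand beside every marker list, the endothelial and neuroendocrine ones included. The summed level of the 9 was 527 FPKM in the primary library and 169 FPKM in the metastatic library. COL3A1 stood at 23.9 and 1.07 FPKM, COL1A2 at 474 and 149 and COL1A1 at 12.6 and 3.02, while DCN, decorin, stood at 0.370 and 2.89. The pericyte genes RGS5 and PDGFRB stood at 7.52 and 8.32 FPKM and at 5.01 and 2.93 FPKM, and LUM was listed at 0 in the primary library. Of 4 lymphatic endothelial markers 2 were expressed, 1 higher and 0 lower, with a sum of 10.2 and 8.73 FPKM. LYVE1 stood at 0.266 and 2.86 FPKM and PROX1, also a gene of endodermal cells, at 9.79 and 5.61. PDPN was listed at 0 in both. Myeloid markers summed to 4.98 and 13.1 FPKM over 6 genes with rows of their own, 2 of them expressed, 1 higher and 0 lower. LYZ, also made by secretory epithelia, stood at 2.72 and 11.97 FPKM and gave most of the metastatic sum. CSF1R, at 1.06 and 0.243 FPKM, was lower with 0.1 or 0.5 FPKM added in place of 1. CD14 stood at 0.767 and 0.341 FPKM, and PTPRC, carried by most blood cells, at 0.111 and 0.0403. ITGAM stood at 0.121 and 0.145 FPKM and TYROBP at 0.198 and 0.396. CD68 stood only in a locus merged with EIF4A1 and SENP3, at 870 and 996 FPKM. The part of these cell types in the values of the angiogenic genes was not tested.

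Likeness to VEGFA and EGFL7 was measured as the distance in log2(FPKM + 1) over the 2 libraries, which are few enough that many genes can be near by level alone. The genes nearest to VEGFA were ADD3 at 110.3 and 37.2 FPKM, JUN at 102.3 and 39.5 FPKM, and P4HA1 at 125.4 and 39.4 FPKM, and 4 entries lay within 0.25. The genes nearest to EGFL7 were PDE1A at 20.8 and 1.44 FPKM, CADM1 at 16.3 and 1.96 FPKM and OSBPL3 at 18.6 and 2.17 FPKM, and 1 entry lay within 0.25.

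The log2 ratios of the 8 genes were recomputed with other pseudocounts, filters, scalings and treatments of rows. EGFL7 ranged from -3.52 to -2.97, VEGFA from -1.77 to -1.60 and EFNA1 from -1.25 to -1.07 over the 10 alternatives. For these 3 the reported ratio was the weakest of the range. The smaller pseudocounts and the 3 scalings lowered it, and the filters and row treatments left it unchanged. None of the alternatives could thus have removed these calls, and the ranges do not show that the calls are stable. VEGFB ranged from -0.87 to -0.70, ANGPTL4 from -0.40 to -0.23, PGF from -0.27 to -0.10 and NRP2 from 0.02 to 0.20.

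**Figure D4:**
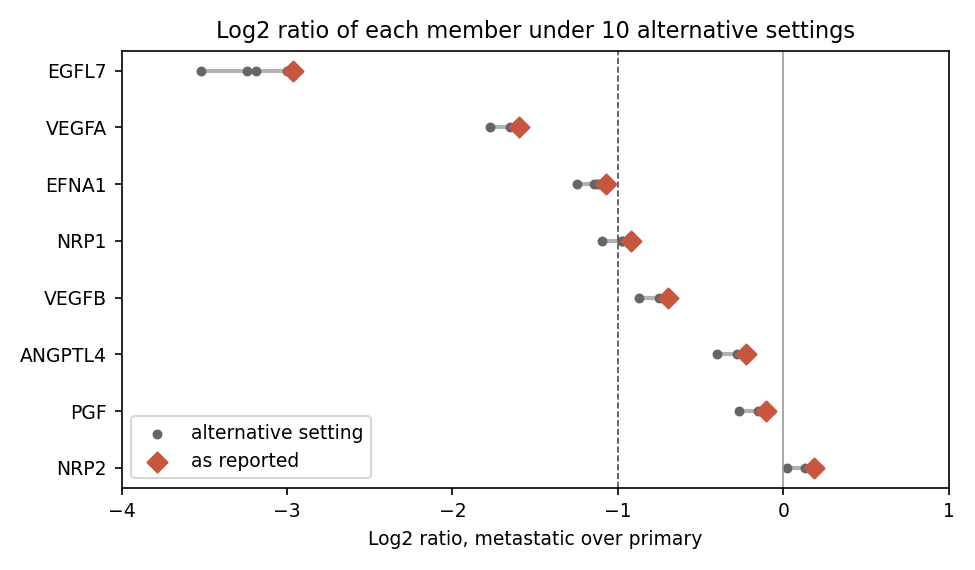
Log2 ratio of each expressed gene as reported (diamonds) and under 10 alternative settings (dots), with a dashed line at the lower 2-fold limit. Each gene keeps its sign, and NRP1 crosses the limit in 1 setting, at -1.09.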

How the data were processed

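The authors deposited FPKM values, as 1 table of 62573 rows with 1 column per library. Tumors had been dissociated and RNA taken from cell pellets, per the labels' protocols. The submitters' processing notes name the build GRCh38 and the tools Cufflinks 2.2.1, STAR 2.7.6a and bcl2fastq 2.18.0.12, without roles. What annotation was used, and how reads from mouse cells were handled, is not given in the sources used here.

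Rows with 1 label were summed. Merged loci were reduced to a gene where the other symbols were clone names, short or antisense RNAs, which left 56969 entries. Entries needed 1 FPKM in a library, and the pseudocount was 1 FPKM. With 1 library per group, calls were made at 2-fold without a test. The procedure was run on simulated data with planted differences and a chosen noise, which checks the calculation and not the calls made here. Python 3.11.15 and pandas 2.3.3 were used.

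The 10 genes and 16 lists were chosen with earlier results of these data known. All 10 genes are named, and of each list up to 4 expressed genes with the largest absolute log2 ratio, with FLT1, FLT4, VEGFD, TEK, HIF1A and EPAS1. Other list genes, and MIR126, LDHA and RPL7A, were chosen after their values were seen. Of the list symbols, 6 older names had no row and were read under the current name. Genome positions were not used here.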

Additional observations from a re-analysis of the deposited data

How the results depend on the processing

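No paired analysis was possible because each group held 1 library, and no replicate could be left out. The alternatives were pseudocounts of 0.1 and 0.5 FPKM, no filter or 5 FPKM, a 4-fold threshold, 3 scalings, the highest row per label, and merged loci left out or all counted. Of the 10 genes, 1 was at least 4-fold lower, EGFL7, beside 259 lower and 165 higher of all entries. With a filter of 5 FPKM 859 entries were at least 2-fold lower and 917 higher, of 9663 tested, so the order of the counts turned. After rescaling to equal sums, which multiplies the metastatic over primary ratio by 0.887 before the pseudocount is added, NRP1 was at -1.09 and passed 2-fold, and 1814 entries were lower and 1029 higher, so 36.2% of called entries were higher in place of 49.6%. The median of the 8 expressed members ranged from -0.98 to -0.81, and without a filter, where VEGFC entered as well, it was -0.70. Single values under 1 FPKM are limited by unknown depth.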
